A study of Mus musculus with 2 samples.

Results

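The collagens and stromal extracellular matrix genes were 44 genes named in a list, and all 44 were found among the 22886 genes of the files, each on 1 line. They encode 14 collagen chains, laminin and other basement membrane proteins, proteoglycans, elastic fibre proteins, adhesive proteins such as fibronectin, and enzymes that process or crosslink collagen. The list was drawn up with the levels and ratios of these libraries known, so its values are given as a description with no test. Both libraries were labelled as aerobic tumor cells sorted by FACS from wild type C57BL/6 mice that carried a subcutaneous LLC tumor (Lewis lung carcinoma, a transplantable mouse lung cancer). The mice of one library received vehicle and those of the other clodronate, which is used to deplete macrophages, and there was 1 library of polyA RNA per condition. The labels do not say what the aerobic gate was, how many mice were pooled, or their age, dose or route. A growth protocol in the labels names EML cells, a blood progenitor line, and so contradicts the tissue and source labels. The libraries are called vehicle and clodronate as labelled.

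The extracellular matrix of a tumor is laid down mainly by fibroblasts and pericytes. Fibrillar collagens give tensile strength, small leucine-rich proteoglycans bind and space the collagen fibrils, and fibrillin and elastin form elastic fibres. Endothelial cells and pericytes add the laminins, collagen IV, nidogen and perlecan of basement membranes. Macrophages secrete fibronectin and other adhesive proteins and take up collagen fragments, but are not a main source of fibrillar collagen.

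The deposited values were RPKM, reads divided by transcript length and by library size, which put genes of different length on the same scale. For the log2 ratio, 1 RPKM was added to both values and the clodronate value was divided by the vehicle value, so that ratios of low genes come out too small. A fold is the plain quotient of RPKM, and where values are given in pairs the vehicle value comes first. Of all genes, 10982 averaged 1 RPKM or more and were kept, among them 31 of the 44 matrix genes. The low values of both files fell on evenly spaced steps once each was multiplied by the length of its transcript. If the smallest step is 1 fragment, the libraries hold about 13800000 (vehicle) and 11300000 (clodronate) fragments. Of 543 vehicle and 905 clodronate loci on the lowest steps, 75.1% and 76.9% lay within 0.1 of a whole fragment. The fragments behind each gene and a 95% counting interval of its fold (exact, Clopper-Pearson) follow from these steps. Such intervals cover counting error only, since reads without molecular identifiers are not independent molecules, and they say nothing of the spread between mice. With 1 library per condition, no p-value is given and no difference has a replicate check.

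**Figure D1:**
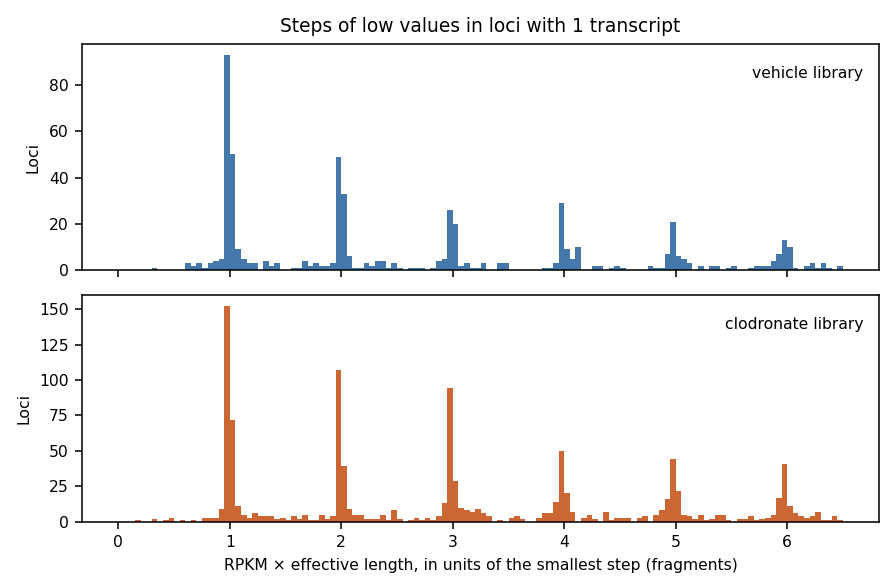
Loci (y axis) against RPKM multiplied by effective transcript length and divided by the smallest step (x axis, fragments), for loci with 1 transcript in the vehicle (top) and clodronate (bottom) library. Peaks stand at whole numbers in both libraries, and the implied depths are about 13800000 and 11300000 fragments.

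Although the labels say tumor cells, macrophage genes had the highest summed level of the marker lists in both libraries. All 16 macrophage markers were at 10 RPKM or more in both, with summed levels of 30958 RPKM with vehicle and 28228 RPKM with clodronate. The matrix genes made up 0.305% of all RPKM in the vehicle and 0.420% in the clodronate library. Without Fn1, the gene of fibronectin, they made up 0.0506% and 0.0392%. Some defining markers of stromal cells were low, while others, such as Cspg4, Eng and Pdpn, stood at 10 RPKM or more in both libraries. Pdgfra, a receptor that marks fibroblasts, had 1.42 RPKM in the vehicle library and 1.02 RPKM in the clodronate one. Pdgfrb, which marks pericytes and fibroblasts, was listed at 0 in the vehicle library, against 0.290 RPKM with clodronate. In these bulk libraries, fewer cells of a type and less RNA per cell cannot be told apart.

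Before any correction for base composition, the matrix genes did not share a direction. Of the 31 genes kept, 16 were lower and 15 higher in the clodronate library, and 51.6% lower compares with 48.4% of all genes kept. Their median log2 ratio was -0.033 against 0.019 for all genes kept. On the log2 scale with RPKM + 1, 0 matrix genes were at least 3-fold lower and 0 at least 3-fold higher, where 2.32% and 2.86% of all genes kept were. At 2-fold, 4 were lower (Dcn, Postn, Aspn and Lum) and 3 higher (Efemp2, Fbn1 and Pcolce), while 6.77% of all genes kept were lower and 6.95% higher. The counting interval of the fold lay wholly below 1 for 13 of the 31 genes and wholly above 1 for 11. Among all genes kept with a transcript length these shares were 35.5% and 38.7%, so that an interval leaving out 1 was common in this pair of libraries. The plots of levels and ratios show that most roles held genes of both directions, while the median log2 ratio differed between roles.

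**Figure D2:**
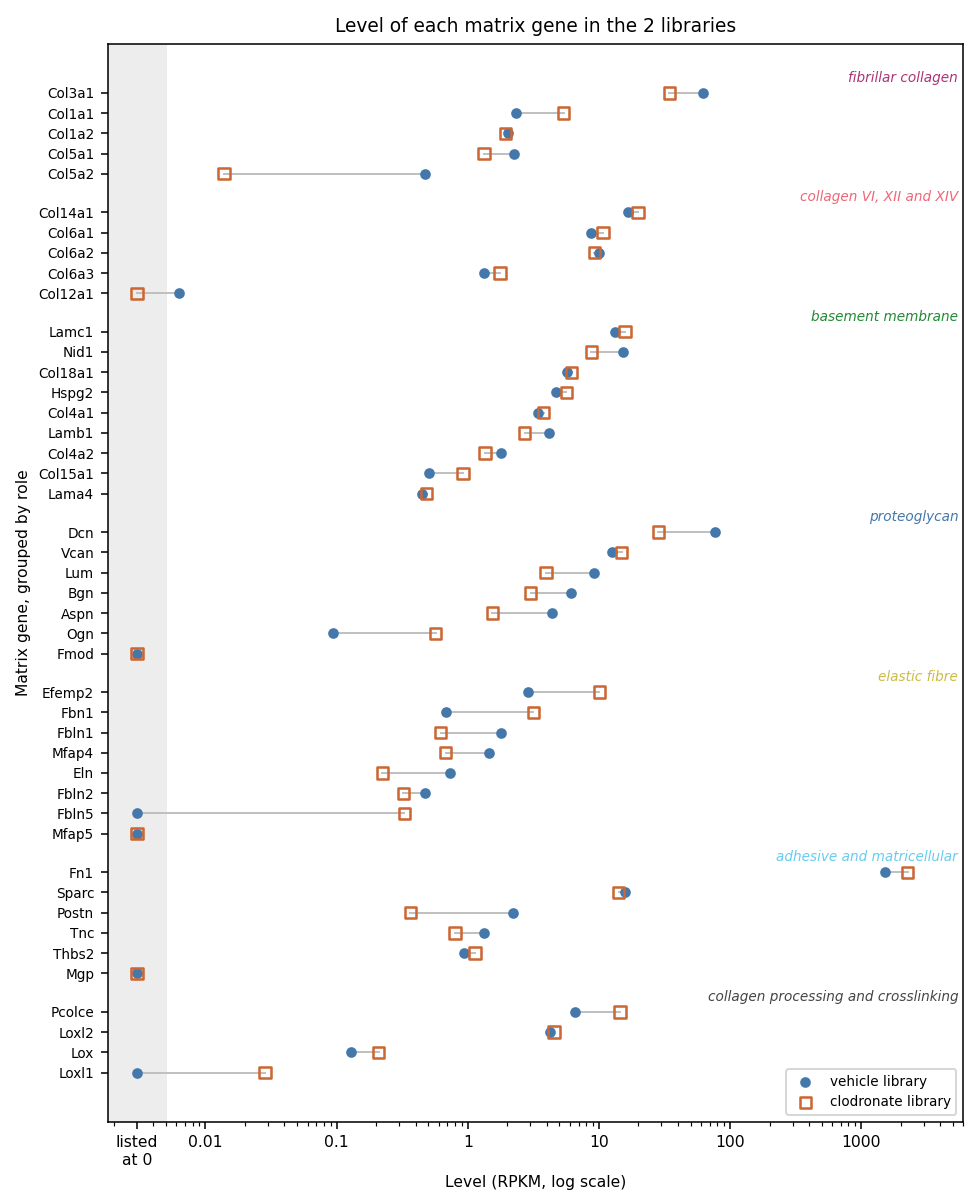
Level of the 44 matrix genes (x axis, RPKM on a log scale) in the vehicle library (filled circles) and the clodronate library (open squares), grouped by role. Values listed at 0 are drawn in the grey strip, and Fn1 stands apart at 1530 and 2269 RPKM.

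**Figure D3:**
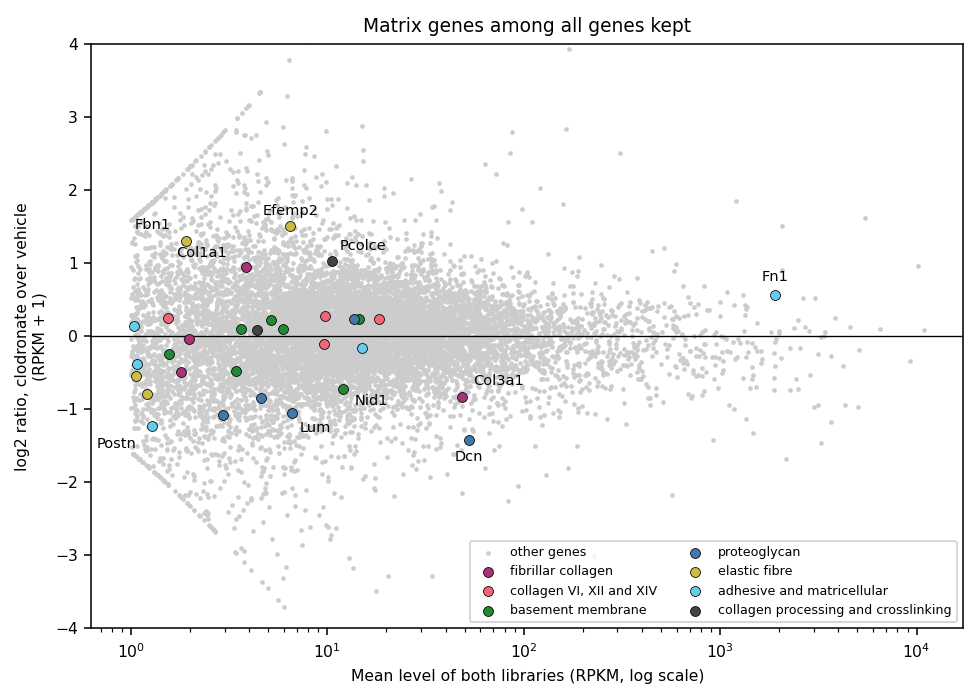
The log2 ratio of clodronate over vehicle (y axis, RPKM + 1) against the mean level of both libraries (x axis, RPKM on a log scale) for the 31 matrix genes kept, colored by role, and all other genes kept (grey). The axis stops at 4 in each direction, which leaves 52 genes outside, and Dcn at -1.41 and Efemp2 at 1.50 are the extremes of the matrix genes.

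Of the 6 small leucine-rich proteoglycans, which sit on collagen fibrils, 4 were kept, and these 4 were lower in the clodronate library. Their summed level over all 6 was 97.1 RPKM in the vehicle library against 37.4 RPKM with clodronate. Dcn, the gene of decorin, which binds collagen fibrils and TGF-β, had 77.3 RPKM with vehicle and 28.4 RPKM with clodronate, from about 1645 and 492 fragments. The vehicle level was 2.72-fold higher, with a counting interval from 2.46 to 3.02. Its log2 ratio of -1.41 lay at percentile 3.05 of all genes kept, and 85 of the 5913 genes that averaged 10 RPKM or more were lower. Dcn lies on chromosome 10 from 96942134 to 96980796 of the mouse build mm9. Lum, the gene of lumican, had 9.23 RPKM in the vehicle library and 3.94 RPKM in the clodronate one. It was 2.34-fold higher in the vehicle library (counting interval 1.86 to 2.98). Bgn, the gene of biglycan, had 6.17 and 3.01 RPKM in the same order, with the vehicle level 2.05-fold higher (1.56 to 2.71). The counting intervals of Dcn, Lum and Bgn overlapped, although Dcn stood at 12.5 times the level of Bgn in the vehicle library.

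Aspn, the gene of asporin, had 4.36 RPKM in the vehicle library against 1.54 RPKM with clodronate, from about 127 and 37 fragments. The vehicle level was 2.82-fold higher (1.93 to 4.15). Aspn and Ogn, the gene of osteoglycin, were given the same locus in the files, on chromosome 13 from 49559428 to 49748100 (mm9), together with Omd, Ecm2 and Cenpp. How reads were shared within this locus is not given in the sources used here, so these values are uncertain. Omd, the gene of osteomodulin and a proteoglycan of the same family outside the list, had 4.03 and 0.689 RPKM. Ogn went the other way, with 0.0931 RPKM from about 3 fragments in the vehicle and 0.571 RPKM from about 15 fragments in the clodronate library, a 6.13-fold difference with a counting interval from 1.73 to 33.0. Fmod, the gene of fibromodulin, was listed at 0 in both. Vcan, the gene of the large proteoglycan versican, had 12.5 RPKM with vehicle and 14.9 RPKM with clodronate and did not share the direction of the small ones.

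The fibrillar collagen genes differed in direction. Col3a1, which encodes the chain of collagen III, had 62.1 RPKM in the vehicle library and 34.4 RPKM in the clodronate one, from about 4597 and 2076 fragments. It was 1.81-fold higher in the vehicle library (1.71 to 1.90) and was the most abundant collagen gene of both libraries. Col1a1, which encodes a chain of collagen I, had 2.32 RPKM from about 184 fragments in the vehicle and 5.40 RPKM from about 348 fragments in the clodronate library. This gene was 2.32-fold higher in the clodronate library (1.93 to 2.79). Col1a2, which encodes the partner chain of collagen I, had 2.01 and 1.94 RPKM, and its counting interval held 1. The chains of collagen I, which are made in a fixed proportion in the protein, therefore differed in ratio. Col1a1 RNA stood at 1.16 times the level of Col1a2 in the vehicle library and at 2.78 times in the clodronate library. Col3a1 stood at 26.7 times the level of Col1a1 in the vehicle library and at 6.37 times in the clodronate library. Collagen III RNA exceeded collagen I RNA in both libraries, and the distance was smaller in the clodronate library.

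Of collagen V, which starts and limits collagen I fibrils, the 2 listed chains were lower in the clodronate library. Col5a1 had 2.27 RPKM from about 257 fragments in the vehicle and 1.33 RPKM from about 123 fragments in the clodronate library, 1.70-fold higher in the vehicle library (1.37 to 2.13). Col5a2 had 0.475 RPKM from about 42 fragments in the vehicle and 0.0139 RPKM from about 1 fragment in the clodronate library. The quotient of 34.3 has a counting interval from 5.82 to 1385, and the gene fell under the filter of 1 RPKM. Its value in the clodronate library is that of a single fragment and fixes no level. Col5a3, a collagen V chain outside the list, went the other way, with 0.617 RPKM from about 50 fragments and 0.831 RPKM from about 55 fragments.

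Collagen VI forms beaded microfibrils around cells, and collagen XIV coats fibrils. The log2 ratios of the genes kept ran from -0.10 to 0.28, and the interval of Col6a2 held 1. Col14a1 had 16.8 RPKM in the vehicle library against 19.9 RPKM with clodronate. Col6a1 had 8.69 and 10.7 RPKM, Col6a2 had 10.001 and 9.25 RPKM, and Col6a3 had 1.33 and 1.76 RPKM. Col6a3, whose chain joins those of Col6a1 and Col6a2 in 1 trimer, stood lower than both in each library, with Col6a1 at 6.52 times its level in the vehicle and 6.09 times in the clodronate library. Col12a1, of the same group as collagen XIV, had 0.00633 RPKM in the vehicle library and was listed at 0 in the clodronate library.

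Before correction for base composition, the basement membrane genes divided. Nid1, which encodes a nidogen, a protein that links the laminin and collagen IV networks, had 15.2 RPKM from about 1232 fragments in the vehicle and 8.76 RPKM from about 581 fragments in the clodronate library. Its vehicle level was 1.73-fold higher (1.57 to 1.91). Nid2, the other nidogen gene and outside the list, had the opposite direction, with 4.70 RPKM from about 303 fragments and 8.91 RPKM from about 468 fragments. Lamb1, a laminin β chain, had 4.18 and 2.71 RPKM and was 1.54-fold higher in the vehicle library (1.28 to 1.87). Lamc1, the γ chain that pairs with it, had 13.3 RPKM with vehicle and 15.8 RPKM with clodronate, a clodronate level 1.19-fold higher (1.10 to 1.28). Lamb1 and Lamc1 thus differed in direction, with Lamc1 at 3.19 times the level of Lamb1 in the vehicle and 5.83 times in the clodronate library. Lamb2, a β chain outside the list, had 0.616 and 0.984 RPKM, the direction of Lamc1. Laminin α chains, which complete the trimer, were low. Lama4 had 0.447 and 0.487 RPKM, and of the α chains outside the list Lama5 had 1.32 and 1.38 RPKM, Lama1 was listed at 0 in both, and Lama2 had 0.168 and 0.131 RPKM. Lama3 had 0.322 RPKM from about 46 fragments in the vehicle library and was listed at 0 in the clodronate one.

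Hspg2, the gene of perlecan, had 4.69 RPKM in the vehicle library and 5.66 RPKM in the clodronate one, 1.21-fold higher in the clodronate library (1.10 to 1.32). Col18a1, whose collagen XVIII releases endostatin, had 5.76 and 6.21 RPKM. Col4a1 had 3.46 and 3.78 RPKM, and the counting intervals of both held 1. Col4a2, which joins Col4a1 in the same trimer and lies beside it in the genome, had 1.78 RPKM from about 154 fragments and 1.36 RPKM from about 95 fragments. Its interval for the vehicle over the clodronate library ran from 1.02 to 1.73. Col15a1 had 0.511 and 0.921 RPKM, under the filter. Of the 7 basement membrane genes kept, Nid1, Lamb1 and Col4a2 were lower in the clodronate library and 4 were higher, none of them by more than 0.23 on the log2 scale.

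Elastic fibre genes had the widest range of log2 ratios of the roles, from -0.79 to 1.50. Fbn1, the gene of fibrillin-1, the main protein of microfibrils, had 0.681 RPKM from about 91 fragments in the vehicle and 3.15 RPKM from about 343 fragments in the clodronate library. It was 4.63-fold higher in the clodronate library (3.66 to 5.89). Efemp2, the gene of fibulin-4, which is needed to build elastic fibres, had 2.90 RPKM from about 54 fragments and 10.1 RPKM from about 152 fragments, 3.47-fold higher in the clodronate library (2.51 to 4.80). Both had low levels, and the pseudocount of 1 RPKM brought their log2 ratios down to 1.31 and 1.50. Fbln1, the gene of fibulin-1, had 1.79 RPKM in the vehicle library against 0.620 RPKM with clodronate, from about 85 and 24 fragments, 2.89-fold higher in the vehicle library (1.82 to 4.75). Mfap4, a microfibril-associated protein gene, had 1.44 and 0.679 RPKM from about 30 and 12 fragments. Its vehicle level was 2.12-fold higher, with an interval from 1.01 to 4.37.

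Other elastic fibre genes fell under the filter. Eln, the gene of elastin itself, had 0.730 RPKM from about 37 fragments in the vehicle and 0.224 RPKM from about 9 fragments in the clodronate library. Fbln2 had 0.474 and 0.323 RPKM. Fbln5, the gene of fibulin-5, was listed at 0 in the vehicle library, against 0.328 RPKM from about 21 fragments with clodronate. Mfap5 was listed at 0 in both. A value of 0 in these files can be a failed estimate, so it is given as listed and not as a level.

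Pcolce, the gene of a protein that speeds the cleavage of procollagen, had 6.63 RPKM from about 129 fragments in the vehicle and 14.5 RPKM from about 230 fragments in the clodronate library. It was 2.19-fold higher in the clodronate library (1.75 to 2.73). Loxl2, a lysyl oxidase that crosslinks collagen, had 4.23 and 4.55 RPKM, with an interval that held 1. The other crosslinking enzymes had few fragments. Lox had 0.128 RPKM from about 8 fragments and 0.209 RPKM from about 11 fragments. Loxl1 was listed at 0 in the vehicle library, against 0.0284 RPKM, about 1 fragment, with clodronate.

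**Figure D4:**
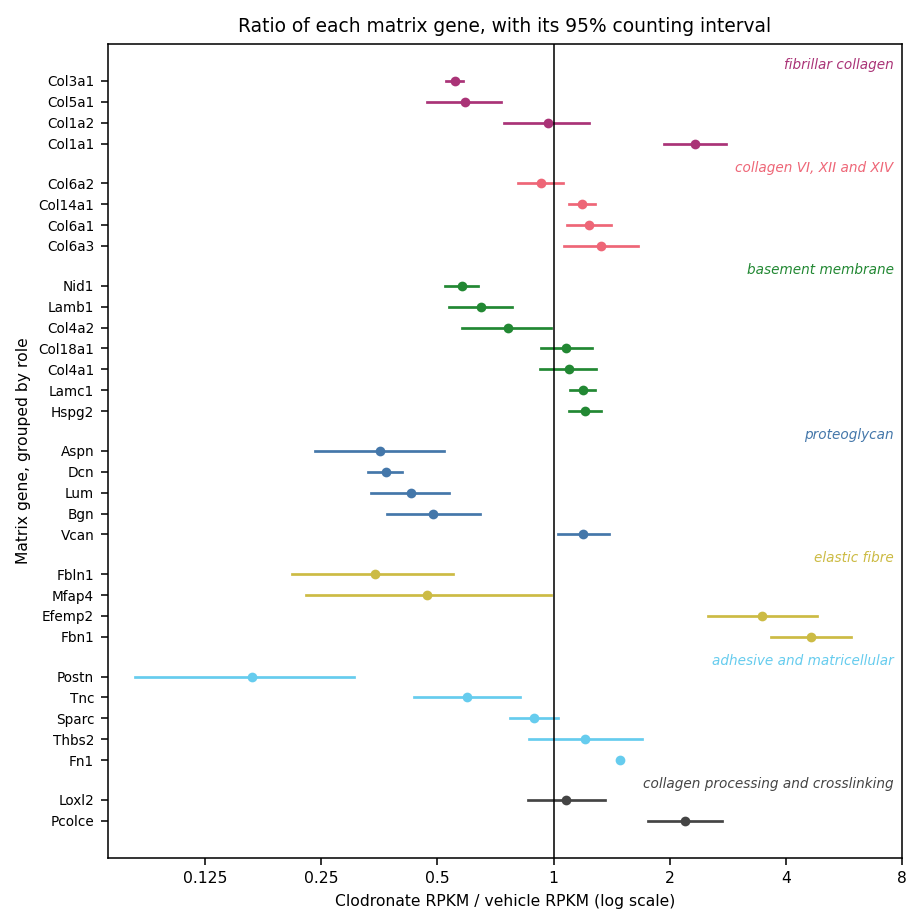
Clodronate over vehicle RPKM (x axis, log scale) for the 31 matrix genes kept, grouped by role, with points for the fold and bars for its 95% counting interval. The small leucine-rich proteoglycans Aspn, Dcn, Lum and Bgn lie left of 1, while Efemp2 and Fbn1 lie at 3.47 and 4.63.

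Fn1 dominated the summed level. It had 1530 RPKM with vehicle and 2269 RPKM with clodronate, rank 59 and rank 29 among all genes. Fibronectin RNA was 83.4% of the summed RPKM of the matrix genes in the vehicle and 90.7% in the clodronate library. The Fn1 level was 1.48-fold higher in the clodronate library (counting interval 1.47 to 1.49). With it, the summed level of the 44 genes was 1835 RPKM in the vehicle library and 2503 RPKM in the clodronate one, and without it 304.3 and 233.9 RPKM. The sum of the matrix genes was therefore higher in the clodronate library with Fn1 and lower without it. Dcn and Col3a1 together made up 45.8% of the sum without Fn1 in the vehicle library and 26.8% in the clodronate one. The lower sum without Fn1 came from these genes and does not describe the other matrix genes.

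Among the other adhesive and matricellular genes, Postn and Tnc were lower in the clodronate library. Postn, the gene of periostin, a protein of activated fibroblasts, had 2.21 RPKM from about 89 fragments in the vehicle and 0.364 RPKM from about 12 fragments in the clodronate library, 6.05-fold higher in the vehicle library (3.30 to 12.1). Tnc, the gene of tenascin-C, had 1.34 and 0.799 RPKM and was 1.67-fold higher in the vehicle library (1.22 to 2.30). Sparc, which encodes a collagen-binding protein, had 15.9 RPKM in the vehicle library against 14.1 RPKM with clodronate, and Thbs2, the gene of thrombospondin 2, had 0.939 and 1.13 RPKM. The counting intervals of Sparc and Thbs2 held 1. Mgp, whose protein inhibits calcification, was listed at 0 in both.

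RefSeq promoter sequences (build GRCm38.p6) were found for 28 of the 44 genes, with 36 start sites. The 250 bases before the start are printed 5′ to 3′ for the 5 genes kept that had a log2 ratio of at least 0.8 in either direction and 1 start site in the table. They are shown because they put the lower genes Aspn, Bgn and Col3a1 beside the higher genes Pcolce and Fbn1. Capitals mark TATAAA (the TATA box), CCAAT (the CCAAT box) and GGGCGG (the GC box) on either strand. In the window of Bgn, neighboring GC box matches overlap.
Aspn: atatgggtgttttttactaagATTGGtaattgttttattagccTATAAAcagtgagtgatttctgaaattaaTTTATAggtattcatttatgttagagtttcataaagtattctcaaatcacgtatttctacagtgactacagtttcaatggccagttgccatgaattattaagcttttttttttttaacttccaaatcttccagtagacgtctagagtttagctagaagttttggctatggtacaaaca
Bgn: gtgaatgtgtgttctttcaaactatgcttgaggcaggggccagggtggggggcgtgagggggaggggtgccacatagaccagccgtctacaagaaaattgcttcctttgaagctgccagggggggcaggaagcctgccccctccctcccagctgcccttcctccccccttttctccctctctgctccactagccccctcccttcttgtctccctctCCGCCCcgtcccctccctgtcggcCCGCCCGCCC
Col3a1: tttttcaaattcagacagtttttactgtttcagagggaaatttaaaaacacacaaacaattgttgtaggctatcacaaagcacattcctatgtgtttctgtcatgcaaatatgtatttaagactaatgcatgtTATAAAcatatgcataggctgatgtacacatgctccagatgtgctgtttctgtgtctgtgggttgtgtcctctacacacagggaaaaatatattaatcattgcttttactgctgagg
Pcolce: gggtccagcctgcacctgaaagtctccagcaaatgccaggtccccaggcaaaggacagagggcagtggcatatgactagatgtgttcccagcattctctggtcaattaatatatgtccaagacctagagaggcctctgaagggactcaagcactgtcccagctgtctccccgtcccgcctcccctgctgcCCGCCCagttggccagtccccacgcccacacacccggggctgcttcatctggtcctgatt
Fbn1: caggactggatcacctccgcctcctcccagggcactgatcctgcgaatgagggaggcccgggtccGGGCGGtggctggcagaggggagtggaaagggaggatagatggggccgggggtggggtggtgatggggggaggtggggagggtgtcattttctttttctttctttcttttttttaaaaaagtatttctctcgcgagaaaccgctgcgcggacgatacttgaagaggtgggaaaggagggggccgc

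The windows of Aspn (chr13:49544193-49544442, + strand) and Col3a1 (chr1:45311288-45311537, + strand) had a GC content of 30.0% and 35.2%. Those of Bgn (chrX:73483351-73483600, + strand), Pcolce (chr5:137611405-137611654, - strand) and Fbn1 (chr2:125506439-125506688, - strand) had 64.4%, 58.8% and 59.2%. TATAAA occurred 2 times in the window of Aspn and 1 time in that of Col3a1, and GGGCGG 3 times in that of Bgn. Windows of low and of high GC content were both found among the lower genes. Over the 36 start sites TATAAA was found in 19.4%, CCAAT in 27.8% and GGGCGG in 58.3%. Among all 32851 windows of the same length these shares were 12.4%, 33.8% and 32.7%, and among the 10643 windows of genes kept they were 6.55%, 35.0% and 57.5%. A match is a description of the letters and not of a bound site.

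Genes of the same pathway from lists outside the 44 were examined next. The comparison for each list is all genes kept, of which 48.4% were lower with clodronate, with a median log2 ratio of 0.019. At 3-fold, 2.32% of all genes kept were lower and 2.86% higher. Among 30 other collagen genes, 16 had no value above 0, and 1, Col16a1, was kept, with 1.61 RPKM in the vehicle library against 2.19 RPKM with clodronate. Of 41 other matrix proteins 16 were kept, 11 of them higher and 5 lower with clodronate. Their median log2 ratio was 0.21, and 0 were at least 3-fold different on the log2 scale. The 5 at 10 RPKM or more in both libraries were Tgfbi with 592 and 808 RPKM, Thbs1 with 413 and 343 RPKM, Spp1 (osteopontin) with 406 and 755 RPKM, Ecm1 with 397.0 and 458 RPKM, and Emilin2 with 132 and 151 RPKM. Dpt, the gene of dermatopontin, which binds decorin, had 10.2 RPKM with vehicle and 4.09 RPKM with clodronate, a direction shared with Dcn.

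Several genes of the machinery that modifies collagen, such as P4hb, stood above all collagen genes examined in both libraries. Others, such as Plod1, Crtap and Serpinh1, stood below Col3a1 in the vehicle library. Of 20 collagen synthesis genes 16 were kept, 9 higher and 7 lower, with a median log2 ratio of 0.078. P4hb, a subunit of prolyl 4-hydroxylase, had 166 RPKM in the vehicle library and 219 RPKM in the clodronate one, and Plod1, a lysyl hydroxylase, had 48.1 and 79.0 RPKM. Crtap, part of the prolyl 3-hydroxylase complex, had 22.2 and 46.0 RPKM. Serpinh1, the collagen-specific chaperone, stood at 6.30 and 6.80 RPKM. Several of these enzymes also act on proteins other than collagen. Of 11 collagen receptors and uptake genes 7 were kept, 5 higher and 2 lower, with Mrc1, the mannose receptor that binds collagen, at 174 and 289 RPKM. Of 13 TGF-β pathway genes 11 were kept, 3 higher and 8 lower, with a median of -0.30. Tgfb1, a ligand of the pathway, had 112 and 167 RPKM, and Tgfbr1, a receptor, had 78.5 and 31.3 RPKM.

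**Figure D5:**
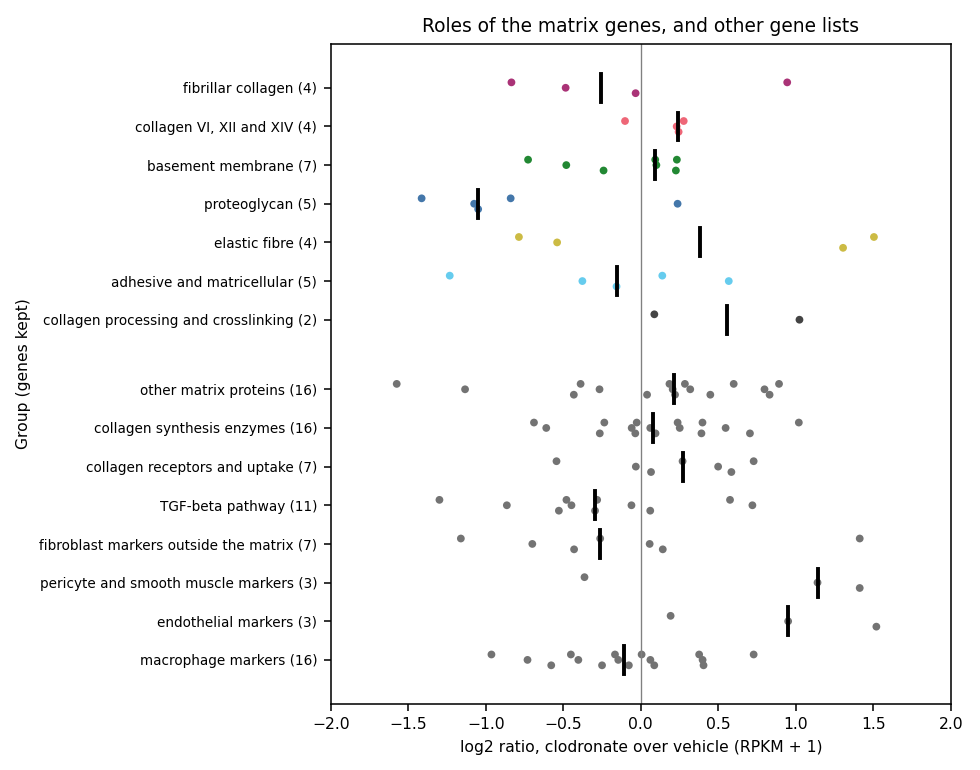
Log2 ratio of clodronate over vehicle (x axis, RPKM + 1) for each gene kept of the 7 roles (colored) and of 8 other lists (grey), with a black bar for the median and the number of genes in brackets. The proteoglycan role has its median at -1.05 and the endothelial markers theirs at 0.95.

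Markers of stromal cells differed between the libraries as well. Of 12 fibroblast markers outside the matrix, 6 were lower and 4 higher in the clodronate library and 2 were listed at 0 in both. Without Pdpn, which had 278 and 306 RPKM and is also expressed by macrophages, their summed level was 14.7 RPKM in the vehicle library against 10.3 RPKM with clodronate. Of the 12 markers 7 were kept, 4 of them lower and 3 higher. Among the lower ones was Fap with 1.34 and 0.0713 RPKM, from about 47 and 2 fragments and under the filter. Twist1 had 1.93 and 0.31 RPKM from about 38 and 5 fragments, and Thy1 had 2.32 and 1.04 RPKM from about 49 and 18 fragments. Of the 31 matrix genes kept, 16 were lower, among them Dcn, Lum, Aspn, Bgn, Postn and Col3a1, beside 48.4% of all genes kept. The 15 that were higher before correction for base composition included Col1a1, Fbn1, Efemp2 and Pcolce. A link between these markers and the matrix genes was not tested. Of the markers, Acta2, the smooth muscle actin gene of myofibroblasts and pericytes, was higher, at 0.138 RPKM with vehicle and 2.03 RPKM with clodronate. Tagln, with 2.31 and 2.44 RPKM, and Pdgfrb were also higher with clodronate. Of 10 pericyte and smooth muscle markers 3 were kept and 4 were listed at 0 in both, Rgs5 and Des among them, and their summed level was 22.5 and 50.9 RPKM, most of it Cspg4.

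Of 10 endothelial markers 3 were kept and 3 were listed at 0 in both, with summed levels of 25.4 RPKM in the vehicle library and 33.8 RPKM in the clodronate one. Most of this sum was Eng, with 22.3 and 25.7 RPKM and a log2 ratio of 0.19. Of the 10 markers 6 were higher and 1 was lower in the clodronate library. Pecam1 had 1.24 and 3.33 RPKM and Cdh5 had 0.480 and 3.24 RPKM. Kdr had 0.650 and 0.831 RPKM, and Flt1 went the other way, with 0.740 RPKM from about 68 fragments and 0.263 RPKM from about 20 fragments. The part of fibroblast, pericyte and endothelial RNA in the ratios of the matrix genes was not tested. Among the other lists, the summed levels in the vehicle and the clodronate library were 16.9 and 11.0 RPKM for 8 epithelial markers, 43.1 and 45.1 RPKM for the 8 neutrophil markers found, 11.1 and 8.85 RPKM for the 7 T and NK cell markers found, 74.7 and 69.5 RPKM for 10 blood progenitor markers, and 16.1 and 16.3 RPKM for 8 adipocyte markers. Epcam was listed at 0 in both.

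Ratios in this pair of libraries varied with base composition. The median log2 ratio was -0.24 in the tenth of genes with the lowest GC content of the transcript and 0.29 in the tenth with the highest. The matrix genes kept had a median GC content of 53.5% and a median transcript length of 5348 bases, against 50.2% and 2672 bases for all genes kept. After both trends were removed, a step chosen after seeing the data, the median log2 ratio of the matrix genes was -0.24. Of the 31 genes, 22 were then below 0 in place of 16, and the median of all genes so corrected was 0. Dcn then had a log2 ratio of -1.19, Lum -0.82, Aspn -0.84, Bgn -0.90 and Col3a1 -0.96. Fbn1 had 1.15, Efemp2 1.28, Pcolce 0.80 and Col1a1 0.52. The differences just listed thus kept their direction. Col6a1, Col6a3, Col4a1, Col18a1, Hspg2 and Loxl2, all with log2 ratios of 0.28 or less, took the other sign. Among them, the counting intervals of Hspg2, Col6a1 and Col6a3 had left out 1. Of the basement membrane genes kept, only Lamc1 stayed above 0, at 0.046.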

How the data were processed

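The authors deposited RPKM values for 23170 gene loci in each of 2 libraries, with Cufflinks-style identifiers. The submitters' processing notes name CASAVA 1.8.2, TopHat2 2.0.9, Bowtie 0.12.9, Cufflinks 2.2.1, Cuffdiff and the build mm9, while the annotation release, strand and read length are not given in the sources used here. The paper describes no experiment of this kind. Locus starts, counted from 0 in the files, were raised by 1. For 26 loci whose symbol had turned into a number, the RefSeq accession served as the name. Lines of the same symbol were summed. Transcript lengths and GC content came from GENCODE M21 through RefSeq accessions, for 98.7% of the genes kept. The value of 1 fragment was fitted on low loci with 1 transcript, with 220 bases taken off each length, and the shortest transcript was used for a gene with several. Steps, ratios and intervals were tested on simulated data. Settings tried in place of these were 0.1 as pseudocount, all genes without a filter, a filter of 5 RPKM, median centring, upper-quartile scaling, the highest line of a symbol, 2-fold in place of 3-fold and leaving out Fn1 or the largest role. Added after seeing the data was a correction over 10 bins of GC content and of length. Any of the 44 genes could be named. From other lists, genes of at least 10 RPKM, the extremes of a list and defining markers could be named, and the laminin chains, Col5a3, Serpinh1 and the genes of the Aspn locus were picked once their values were known. Values of 1 further gene that the rule allowed are not reported here. The gene list, its roles and the other lists were chosen with earlier results of these data known. Python 3.11.15, numpy 2.4.6, pandas 2.3.3, scipy 1.17.1 and matplotlib 3.10.9 were used.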

Additional observations from a re-analysis of the deposited data

How the results depend on the processing

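No paired analysis was possible because the conditions have 1 library each. With a pseudocount of 0.1, 1 matrix gene (Postn) was at least 3-fold lower and 2 (Fbn1 and Efemp2) at least 3-fold higher, in place of 0 and 0. Of all genes kept, 4.37% were then at least 3-fold lower and 4.84% higher, in place of 2.32% and 2.86%. With the pseudocount of 1 and a threshold of 2-fold, 4 matrix genes were lower and 3 higher, beside 6.77% and 6.95% of all genes kept. With a filter of 5 RPKM on the mean, 6 of 15 matrix genes were lower. The share of all genes that were lower at that filter was not computed. The median log2 ratio of the 15 matrix genes was 0.23, against 0.028 for all genes at that filter. The clodronate to vehicle ratio of the summed level was 1.36, or 1.31 after upper-quartile scaling, and turned to 0.769 without Fn1. The median lay between -0.24 (corrected for GC content and length) and 0.23 under all settings run. The correction, chosen after seeing the data, changed the sign of 6 genes, and the other settings changed the sign of 0 of the genes kept. The highest line of each symbol could change no value, since each matrix gene has 1 line. Depth limits the genes under about 100 fragments, and 20 of the 31 genes kept had at least 100 in both libraries. Fewer genes entered at the higher filter. The plain folds of Postn (6.05, vehicle over clodronate), Fbn1 (4.63) and Efemp2 (3.47, both clodronate over vehicle) all exceed 3, and a smaller pseudocount lowers them less. Upper-quartile scaling multiplies a library by a constant, which moves the ratio of the sums.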
